A study of Saccharomyces cerevisiae with 8 samples.

Results

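The comparison described here is that of the L-UBB+1 strain with the control strain at D6, sampled 6 days after the carbon source of the medium had been used up. It rests on 4 of the 8 arrays of the series, the 2 arrays labelled L-UBB+1 at D6 and the 2 labelled control at D6, and covers all 5444 genes that the arrays could be tied to. Both strains were *Saccharomyces cerevisiae* CEN.PK113-11C, a haploid laboratory strain with the stated genotype MATα his3Δ1 ura3-52 MAL2-8c SUC2. The L-UBB+1 strain carried the plasmid p413 TEF-UBB+1, which expresses the frameshifted human ubiquitin UBB+1 at a low constitutive level from the TEF promoter, and the control strain carried the same plasmid without an insert. Cultures were grown in shake flasks at 30 °C in synthetic glucose medium, in biological duplicate, and the other 4 arrays hold the same strains in the exponential phase (EX). Levels are the log2 values that the authors deposited for Affymetrix Yeast Genome 2.0 arrays, and log2(FC) is the mean of the L-UBB+1 arrays minus the mean of the control arrays at D6. Each gene is represented by the probe set with the highest mean over the 8 arrays.

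Budding yeast on glucose ferments it to ethanol and represses the genes for other carbon sources. When glucose runs out, the kinase Snf1 and the activators Cat8 and Adr1 switch on the genes that burn ethanol, acetate and fatty acids, and cells that then run out of carbon altogether enter stationary phase, in which ribosome production, growth and division stop and autophagy and stress protection rise. Ubiquitin marks proteins for the proteasome, and UBB+1 is a form of it that lacks the terminal glycine needed for this.

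The labels were set against marker genes before the strains were compared. By the list medians given here, the control D6 arrays carried the markers of starved cells low and those of growing cells high. The median log2 level of 15 stationary phase genes was 7.76 and 7.91 on the control D6 arrays and 11.48 and 10.95 on the L-UBB+1 D6 arrays. For the 8 genes of gluconeogenesis and the glyoxylate cycle these medians were 7.0 and 7.08 in the control and 10.25 and 9.73 in L-UBB+1. The same markers separated the strains at EX, where the stationary phase genes had medians of 8.23 and 8.3 in the control and 11.15 and 11.36 in L-UBB+1. For growing cells, medians of 128 cytosolic ribosomal protein genes were 11.58 and 11.47 in the control and 10.52 and 10.62 in L-UBB+1 at D6. The medians of these lists moved with the strain on all 8 arrays, and the part of growth state in the strain difference at D6 was not tested. Not all markers did so. General stress genes had medians of 10.12 and 9.86 in the control and 9.14 and 9.72 in L-UBB+1 at EX. Ribosome biogenesis did not separate the strains there, and at D6 *YGP1* was higher in the control. By the medians that moved with the strain, the control D6 arrays resembled growing cells and the L-UBB+1 EX arrays starved cells, against their phase labels. Whether the labels of these groups had been exchanged was not tested, and the labels were kept. With such an exchange, each log2(FC) at D6 would be a difference between phases. Control and L-UBB+1 stand below for the arrays so labelled.

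**Figure D1:**
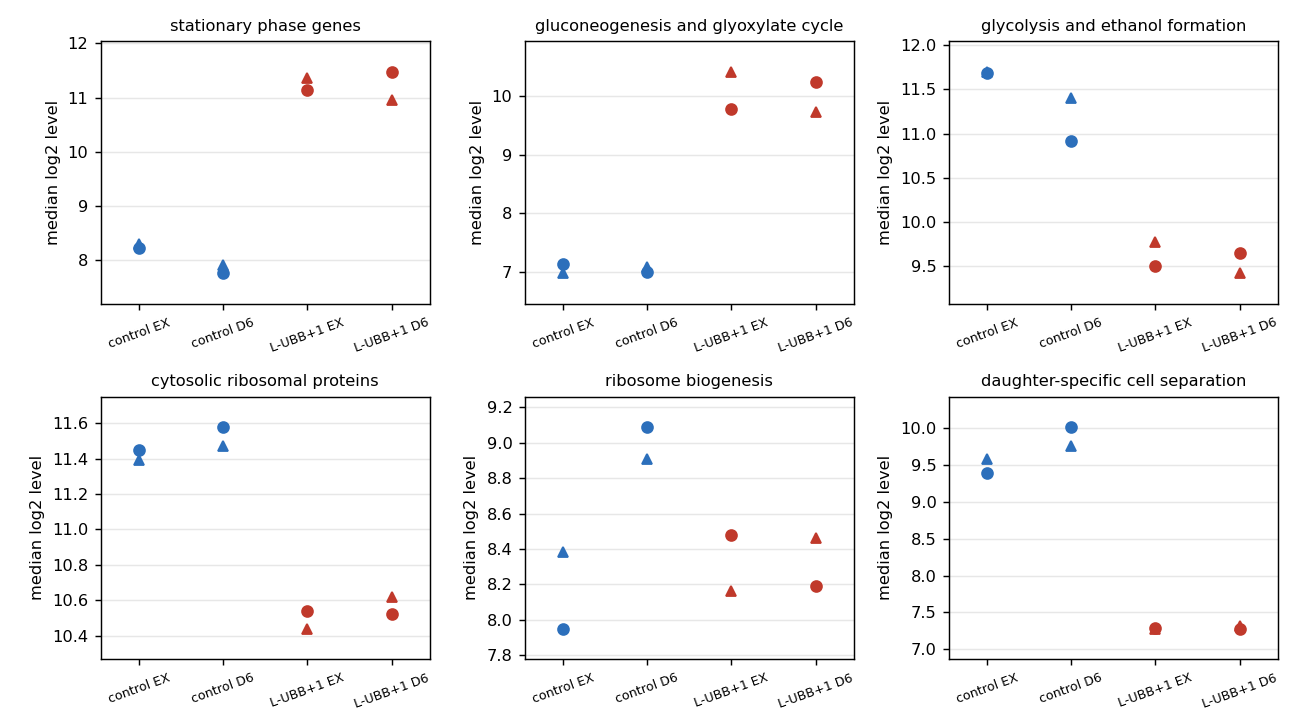
Median log2 level (vertical axes, a different range in each panel) of 6 gene lists on each of the 8 arrays, with control in blue, L-UBB+1 in red, replicate 1 as circles and replicate 2 as triangles. In 5 of the 6 panels the arrays separate by strain at both phases, with the stationary phase genes at 7.76 and 7.91 on the control D6 arrays and 11.48 and 10.95 on the L-UBB+1 D6 arrays, while ribosome biogenesis is highest on the control D6 arrays, at 9.09 and 8.91.

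The D6 replicates differed by an SD over genes of 0.256 in the control and 0.287 in L-UBB+1. Each L-UBB+1 D6 array lay closer to an L-UBB+1 EX array than to its own replicate, with an SD of 0.143 between D6 replicate 1 and EX replicate 2 and of 0.086 between D6 replicate 2 and EX replicate 1. Between the strains at D6 the SD was 1.247 to 1.29. Array medians at D6 lay between 8.36 and 8.42, as values normalized between arrays do, so that a change in the total mRNA per cell could not be seen, and in such bulk samples fewer cells of a kind and less RNA per cell cannot be told apart. By the levels of their probe sets, which differ in brightness, most mating type markers in the control went against the genotype given for the strain. In L-UBB+1 they were mixed. *STE2*, the receptor that MATa cells use for alpha-factor, was at 10.52 and 10.74 in the control and 7.59 and 7.83 in L-UBB+1. Of 7 MATa-specific genes 5 were lower in L-UBB+1, while *MFA1* (0.63) and *ASG7* (-0.005) were not called. The alpha-factor gene *MF(ALPHA)1*, made by MATα cells, was between 5.90 and 6.29 on the 4 arrays, and 0 of 4 MATα-specific genes were called. Of these, *SAG1* (0.99) and *STE3* (0.98) were higher in L-UBB+1 and just missed the fold threshold, and *MF(ALPHA)2* was at 0.54. *SAG1* was at 8.29 and 8.14 in L-UBB+1, above *STE2* there. The plasmid marker *HIS3* was at 12.15 and 11.2 in the control and 10.61 and 10.92 in L-UBB+1 and was not called.

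At D6, 974 genes were higher and 1005 lower in L-UBB+1 with a log2(FC) of at least 1 in size and an adjusted p under 0.001, which are the terms on which a gene is said to have risen or fallen below (limma, Benjamini-Hochberg over all 5444 genes). These 1979 genes were 36.4% of those tested, with 17.9% higher and 18.5% lower, and each list below is to be read against these shares. The change passed 2 in size for 277 risen and 258 fallen genes, and passed 4 for 26 risen and 5 fallen genes, so that the strongest changes lay on the side of the rises. Of all genes, 1811 differed by less than 0.5 in size, and the median log2(FC) was -0.01. The median standard error of a log2(FC) was 0.13 and the largest of a called gene was 0.42. The samples are labelled as biological duplicates. P-values measure the spread between the 2 cultures within a group, pooled over the 4 groups and moderated across genes. The replicate deviations of the L-UBB+1 EX and D6 arrays correlated at -0.855, so these groups may not give separate estimates of that spread.

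**Figure D2:**
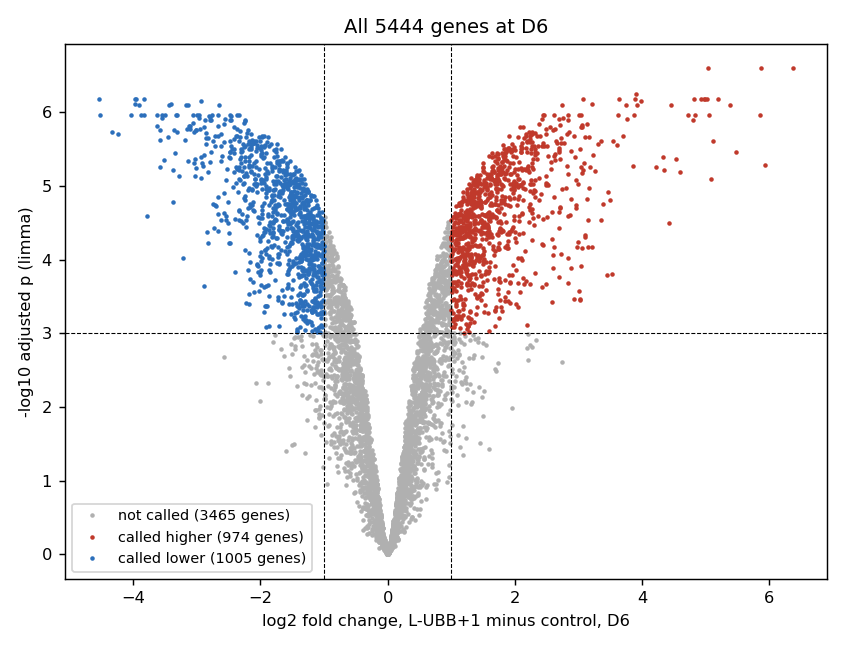
Each point is 1 of 5444 genes, with the log2 fold change of L-UBB+1 over control at D6 on the horizontal axis and -log10 of the limma adjusted p on the vertical axis; dashed lines mark the thresholds of a call. The 974 risen genes (red) reach further from 0 than the 1005 fallen genes (blue), and 3465 genes (grey) were not called.

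The 15 genes that rose most included transporters and enzymes for carbon sources other than glucose and genes of stationary phase. *RGI2*, a factor of energy metabolism in respiring cells, was at 5.75 and 5.62 in the control and 12.14 and 11.96 in L-UBB+1, a log2(FC) of 6.37 ± 0.11 (SE, n = 2 arrays per strain). *SPG1* and *SPG4*, required for survival in stationary phase, rose by 5.93 and 5.86, and the hydrophilin genes *SIP18* and *GRE1*, which protect cells during drying, by 5.48 and 5.08. Peroxisomal catalase *CTA1* was at 6.05 on both control arrays and 12.05 and 11.79 in L-UBB+1. Others among the 15 were the hexose transporter *HXT5*, the acetate transporter *ADY2*, the lactate transporter *JEN1*, the ethanol-oxidizing alcohol dehydrogenase *ADH2*, the acyl-CoA oxidase *POX1*, the formate dehydrogenase *FDH1*, the kinase gene *PRR2*, *YIG1* and *YMR206W*, all with a log2(FC) between 4.93 and 5.38. The arrays of the strains did not overlap in these 15 genes, which their choice as the largest changes fixes, and over all genes the D6 arrays did not overlap in 4732 of 5444, or 86.9%.

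Among the 15 largest falls were genes of the cell wall, of sterol and sulfur metabolism and of glycolysis. *DSE2*, which acts in the wall of daughter cells when they split from the mother, was at 10.69 and 10.62 in the control and 6.16 and 6.10 in L-UBB+1 and fell by 4.53 ± 0.12 on the log2 scale. The chitin transglycosylase *UTR2* went from 10.80 and 10.75 to 6.32 and 6.22. Methionine synthase *MET6* (-4.23), cystathionine gamma-lyase *CYS3* (-3.78), enolase *ENO2* (-3.97), the sterol methyltransferase *ERG6* (-3.97) and the Hsp70 chaperone *SSA2* (-4.04) fell as well. The glucose transporter *HXT4*, the wall genes *DSE4*, *SUN4*, *TOS6* and *SVS1*, the flavohemoglobin *YHB1*, which detoxifies nitric oxide, the sterol desaturase *ERG5* and the membrane protein gene *SUR7* completed the list, between -3.62 and -4.33.

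**Figure D3:**
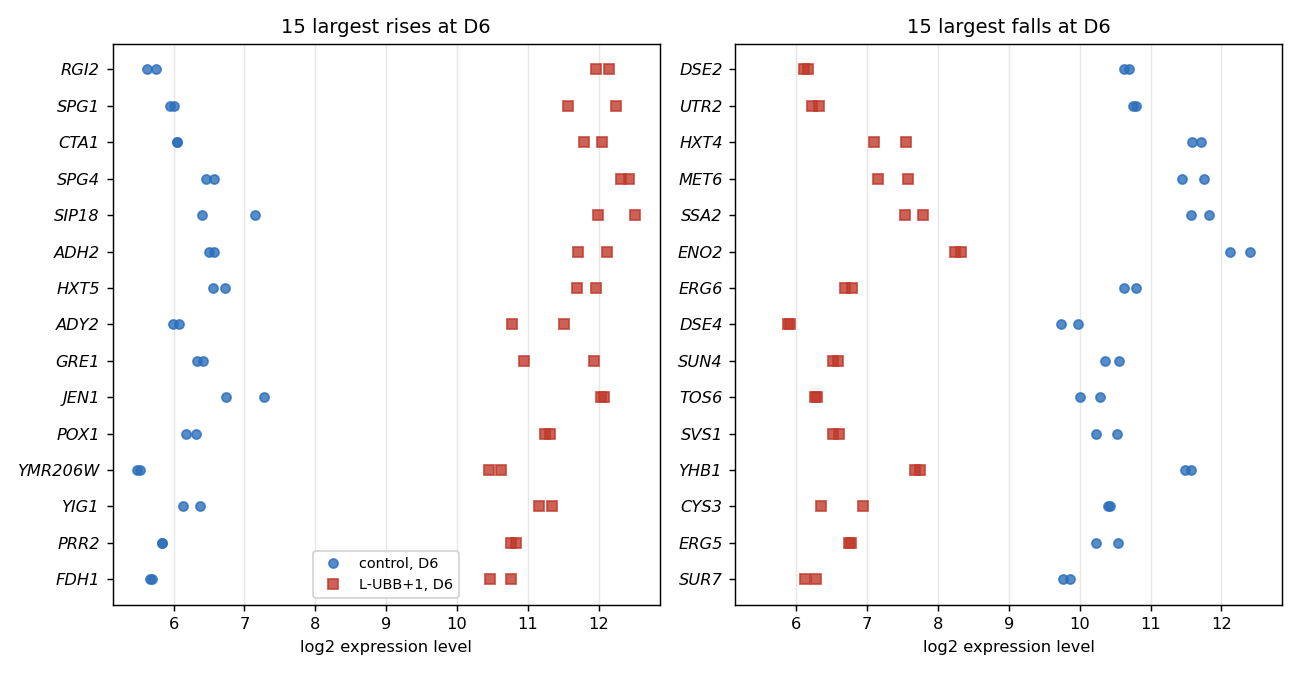
Log2 expression level (horizontal axis) of the 15 genes with the largest rise (left) and the largest fall (right) on each D6 array, with circles for the 2 control arrays and squares for the 2 L-UBB+1 arrays. The genes were chosen for the size of their change, and the replicates can be read beside it, as for *RGI2* at 5.75 and 5.62 in the control and 12.14 and 11.96 in L-UBB+1.

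Many transcripts for the use of carbon sources other than glucose were higher in L-UBB+1. All 8 genes of gluconeogenesis and the glyoxylate cycle rose, with a median log2(FC) of 2.55. Malate synthase *MLS1*, of the glyoxylate cycle, was at 6.16 and 6.45 in the control and 11.26 and 10.21 in L-UBB+1, and phosphoenolpyruvate carboxykinase *PCK1*, which starts glucose synthesis, was at 7.24 and 7.19 against 11.1 and 10.84. Both L-UBB+1 arrays lay above both control arrays in each of the 8 genes, and the arrays of the strains did not overlap in 86.9% of all genes. Fructose bisphosphatase *FBP1* rose by 2.49 (adjusted p = 7.36e-06) and isocitrate lyase *ICL1* by 2.60 (adjusted p = 8.77e-05). The calls of *ICL1* and of the cytosolic isocitrate dehydrogenase *IDP2* (2.17) were lost when either control D6 array was left out. Of 14 genes for the use of ethanol, acetate, lactate and glycerol, 9 rose and 0 fell. Besides *ADH2*, *ADY2* and *JEN1* these included the glycerol importer *STL1* (2.87), the mitochondrial glycerol 3-phosphate dehydrogenase *GUT2* (2.72) and the mitochondrial aldehyde dehydrogenase *ALD4* (2.20), whereas cytosolic *ALD6* was at -0.31 and was not called.

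Fatty acid breakdown, which yeast confines to peroxisomes, had the highest median of all lists, at 3.80, and 11 of its 12 genes rose. Each step of the pathway was represented. Of the importers of fatty acyl chains into the peroxisome, *PXA1* rose by 3.98 and *PXA2* by 1.79. Of the enzymes of the beta-oxidation spiral, *POX1* rose by 5.03, *FOX2* by 3.90 and the thiolase *POT1* by 4.81, from 5.97 and 5.89 in the control to 11.0 and 10.47 in L-UBB+1. The 3 auxiliary genes for unsaturated chains *SPS19*, *ECI1* and *DCI1* rose by 4.81, 2.70 and 2.13, and the thioesterase *TES1*, at 1.04, was not called. All 5 genes of the carnitine shuttle, which carries acetyl groups into mitochondria, rose, among them the acetyltransferases *YAT1* (3.92), *YAT2* (3.14) and *CAT2* (3.04) and the carrier *CRC1* (3.38). Of 25 genes for making peroxisomes 14 rose and 0 fell, led by the import factor *PEX18* (2.82) and the membrane biogenesis factors *PEX3* (2.62) and *PEX19* (2.35), and *PEX21*, the paralog of *PEX18*, was at -1.13 without a call.

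Transcripts of glycolysis moved the other way, with 0 of 23 genes higher and 13 lower. Phosphoglycerate kinase *PGK1* was at 12.33 and 12.72 in the control and 9.01 and 8.88 in L-UBB+1, and phosphoglycerate mutase *GPM1*, the next step, fell by 3.01. Glyceraldehyde 3-phosphate dehydrogenase *TDH3* (-1.94), pyruvate kinase *CDC19* (-1.97) and pyruvate decarboxylase *PDC1* (-2.61) fell. The fermentative alcohol dehydrogenase *ADH1*, at -0.92, missed the fold threshold (adjusted p = 9.48e-05). Among 17 hexose transporters and sensors the glucose-induced *HXT1* (-2.82), *HXT3* (-2.90) and *HXT4* (-4.33) fell, and 7 genes rose, namely *HXT5* (5.2), *HXT15*, *HXT11*, *HXT9* and *HXT10* and the sensors *SNF3* (1.93) and *RGT2* (1.31). The count of 7 was 3 when the dimmest genes were left out. *HXT2* was at 11.07 and 10.79 in the control and 8.76 and 10.16 in L-UBB+1, with L-UBB+1 replicates further apart than those of most genes, and was not called. None of 5 galactose genes was called, while 5 of 11 genes for maltose-type sugars rose, among them the maltose transporters *MAL31* (2.25) and *MAL11* (1.96). Without probe sets that may cross-hybridize between such related genes that count was 3.

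Mitochondrial genes rose in part. In the TCA cycle 6 of 16 genes rose and 0 fell, with *CIT3* for citrate synthase at 4.72, the succinate dehydrogenase subunits *SDH2* and *SDH1* at 2.30 and 1.84 and the oxoglutarate dehydrogenase subunits *KGD1* and *KGD2* at 1.97 and 1.33. The isocitrate dehydrogenase subunits *IDH1* and *IDH2* were at -0.74 and -0.56 and were not called, so that the cycle did not move as a whole. Of 36 genes of the respiratory chain and ATP synthase 13 rose and 1 fell, a count that was 7 without control D6 replicate 2. The external NADH dehydrogenase *NDE2* was at 6.81 and 6.87 in the control and 10.61 and 10 in L-UBB+1. Cytochrome c gave opposite values for its genes, with *CYC1* falling by 1.45, from 10.86 and 10.77 to 9.43 and 9.30, and *CYC7* at 2.27 without a call (adjusted p = 0.00151). Mitochondrial ribosomal proteins rose in 20 of 73 cases and fell in 1, with a median of 0.64, and the count of 20 was 11 without control D6 replicate 1, 12 without either L-UBB+1 D6 array and 10 in a fit of the 4 D6 arrays alone. Among 32 mitochondrial import genes 5 rose (15.6%) and 1 fell (3.12%), against 17.9% and 18.5% of all genes, and 3 rose without control D6 replicate 1.

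Transcripts of regulators of carbon use were taken next. Of 34 transcription factors for carbon source and stress 19 rose and 3 fell. *CAT8*, the activator of gluconeogenesis, was at 6.37 and 6.51 in the control and 10.29 and 10.13 in L-UBB+1, and *ADR1*, the activator of *ADH2* and of the peroxisomal genes, was at 7.71 and 7.73 against 10.62 and 10.81. All 4 subunits of the respiratory activator HAP rose, from 1.19 for *HAP5* to 1.77 for *HAP2*. The activators *SIP4* (2.61) and *RDS2* (2.36) and the oleate-responsive *OAF1* (1.57) rose, the first of these without a call when control D6 replicate 2 was left out. The 3 that fell were the glucose repressor *MIG2* (-1.77), the glucose-signalling factor *STD1* (-1.42) and the stress activator *MSN4* (-1.24), and the repressor *MIG1*, at 1.16, was not called. Of 27 nutrient signalling genes 7 rose and 1 fell. They included *SIP2*, a subunit of the Snf1 kinase (2.29), and *IGO1* and *IGO2*, which protect mRNAs on entry into quiescence (1.73 and 2.24), the GTPase *RAS1* (-1.56) was the gene that fell, while *SNF1* itself (0.18), *TOR1* (0.39) and *SCH9* (0.35) were not called.

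**Figure D4:**
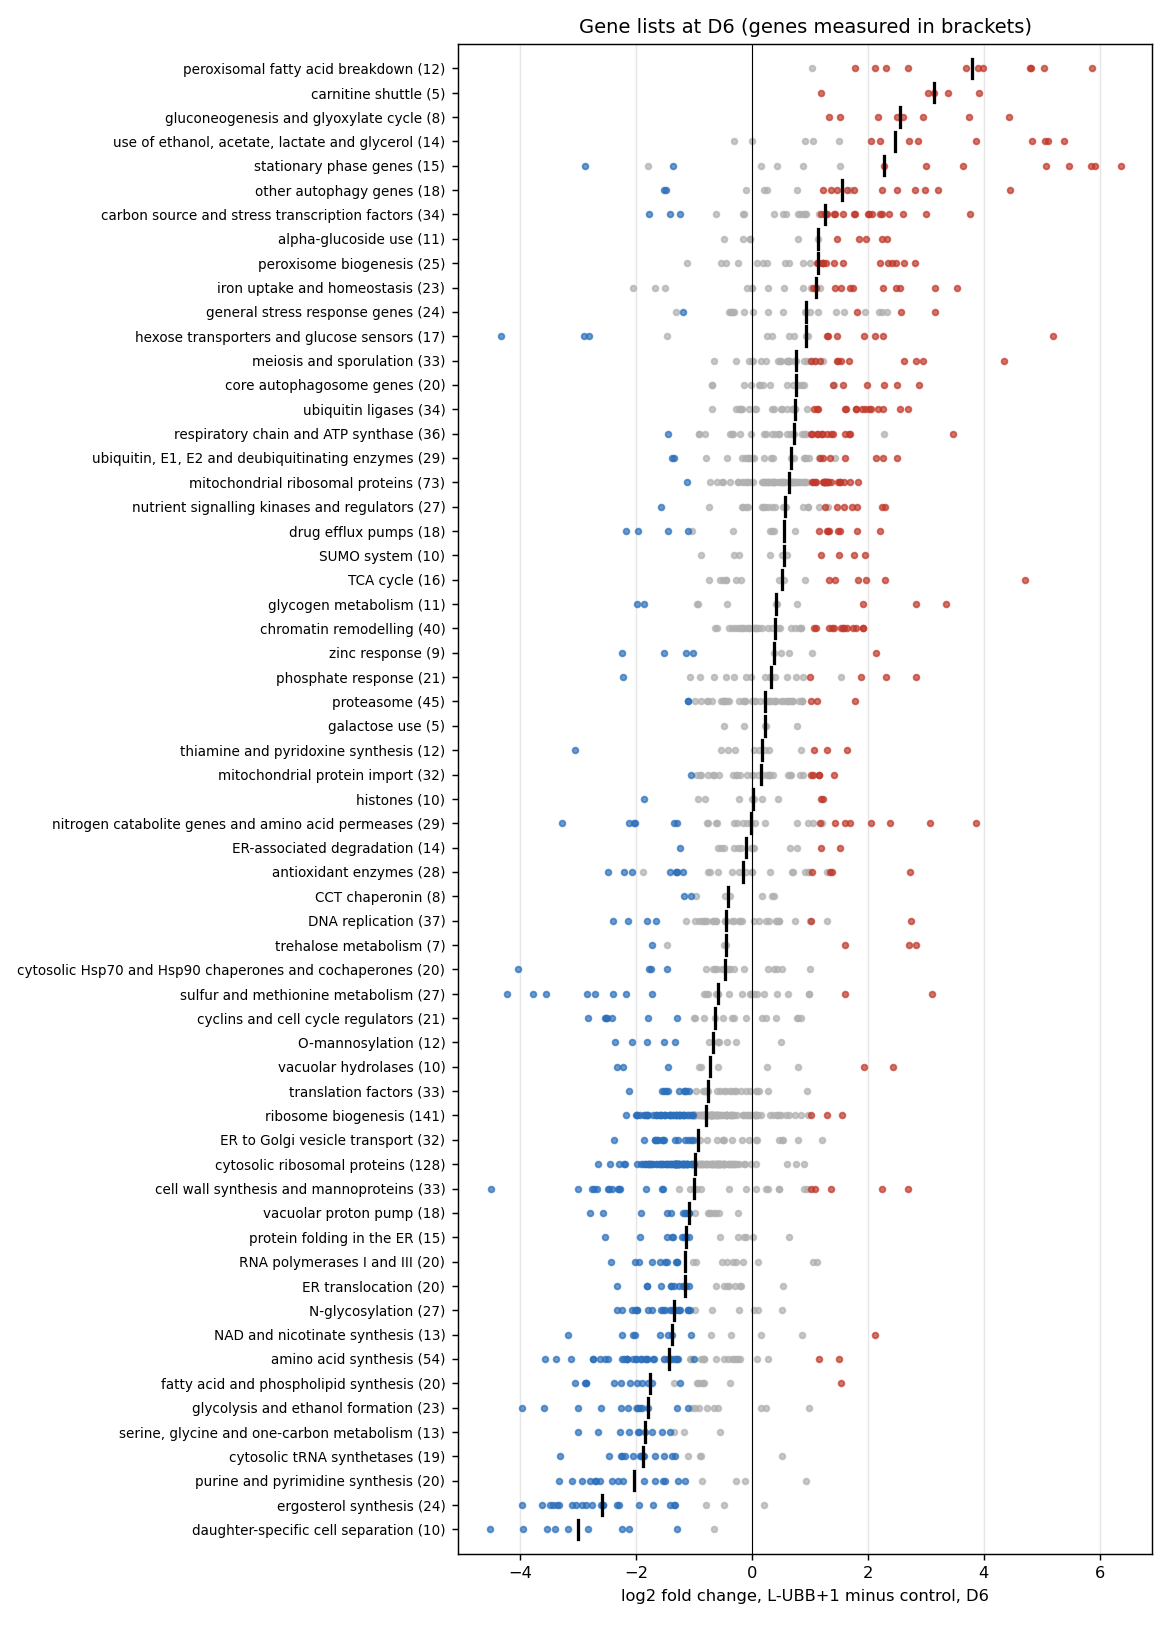
Log2 fold change of L-UBB+1 over control at D6 (horizontal axis) for each gene of the gene lists, ordered by median (black bars), with risen genes in red, fallen genes in blue and genes not called in grey. Fatty acid breakdown lies highest with a median of 3.80, and daughter-specific cell separation and ergosterol synthesis lie lowest with -3.01 and -2.58.

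Genes of stationary phase and of the general stress response were counted apart. Of 15 stationary phase genes 8 rose and 2 fell, with a median of 2.27. Beside those named above, *SPG5*, which acts in proteasome assembly during quiescence, rose by 3.64 and the repressor *XBP1* by 3.0. *YGP1*, a secreted glycoprotein induced on nutrient limitation, was at 10.01 and 11.23 in the control and 8.0 and 7.46 in L-UBB+1 and fell by 2.89 ± 0.37, a call lost without L-UBB+1 D6 replicate 2 and in a fit of the 4 D6 arrays alone. The other fallen gene was *SNO1* (-1.36), whose call was lost in 8 alternatives. Of 24 general stress genes only 3 rose and 1 fell, and their control replicates lay apart. The membrane protector *HSP12* was at 9.98 and 11.73 in the control and 12.57 and 12.03 in L-UBB+1 (log2(FC) 1.45, adjusted p = 0.0311). *DDR2* was at 8.68 and 9.99 against 11.84 and 11.31 (2.24, adjusted p = 0.00142), and the small heat shock gene *HSP26* at 8.70 and 9.79 against 11.79 and 11.08 (2.19, adjusted p = 0.00159). Control replicate 2 was the higher in each of these 3 genes, and lay below both L-UBB+1 arrays. The disaggregase *HSP104* was at 0.02. The control arrays also differed from their own EX arrays here, with a median change of -0.92 over the 24 genes from EX to D6.

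Storage carbohydrate genes went both ways. The trehalose-degrading *NTH1*, *NTH2* and *ATH1* rose by 1.60, 2.84 and 2.71, while *TPS3*, of the synthase complex, fell by 1.72 and *TPS1*, *TPS2* and *TSL1* were at -0.48, -0.45 and -1.46 without a call. Among 11 glycogen genes 3 rose (27.3%) and 2 fell (18.2%), against 17.9% and 18.5% of all genes. The risen genes were the primer *GLG2* (3.35), the synthase regulator *GAC1* (2.84) and the branching enzyme *GLC3* (1.92). *PGM1* and *UGP1*, which supply the sugar donor, fell by 1.99 and 1.86, and the *PGM1* paralog *PGM2* was at 0.78 without a call. Glycogen phosphorylase *GPH1* was at 8.22 and 10 in the control, a gap between replicates larger than the difference between the strains (-0.95).

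Many genes of ribosomes and growth fell. Of 128 cytosolic ribosomal protein genes 63 fell and 0 rose, and their median of -0.99 lay at the fold threshold. The range ran from -2.66 for *RPS22A* to 0.89 for *RPS27A*, and *RPL3*, with 12.16 and 12.04 in the control and 11.16 and 11.24 in L-UBB+1, missed the threshold at -0.90. Of 141 ribosome biogenesis genes 40 fell and 3 rose. The nucleolar proteins *NOP58* and *NOP56*, which hold guide RNAs on pre-rRNA, fell (-1.94 and -1.81), as did the processing factor *RRP1* (-2.18). The count of falls was 16 without control D6 replicate 1, 19 without its replicate 2 and 21 without L-UBB+1 D6 replicate 1. For RNA polymerases I and III, which make ribosomal and transfer RNA, 10 of 20 subunits fell, with *RPA49* at -2.43, and 15 of 19 cytosolic tRNA synthetases fell, with the enzyme for tyrosine, *TYS1*, at -3.31. Among 33 translation factors 10 fell and 0 rose, among them *TEF4* (-2.12).

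Genes of biosynthesis were among those that fell most. In ergosterol synthesis, the sterol pathway that azole antifungals block, 21 of 24 genes fell and 0 rose, with a median of -2.58. The azole target *ERG11* was at 11.59 and 11.53 in the control and 8.04 and 8.10 in L-UBB+1, and the desaturases *ERG3* and *ERG5* fell (-3.36 and -3.62). The enzyme that commits to the pathway showed a split, since *HMG1* fell by 2.29 and its paralog *HMG2* was at 0.21. Among 20 genes for fatty acids and phospholipids 12 fell, among them the elongases *ELO1*, *ELO2* and *ELO3* (-2.86, -2.89 and -3.05) and the desaturase *OLE1* (-1.98). The only one to rise was the phosphatidate phosphatase *PAH1* (1.54), which turns membrane lipid precursors into storage fat, and its call was lost without either control D6 array.

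For amino acids, 31 of 54 genes fell and 2 rose. *LYS9*, of lysine synthesis (-3.57), *ARO8*, an aromatic aminotransferase (-3.37), and *HIS7*, of histidine synthesis (-3.13), fell most. The 2 that rose were *BAT2* (1.51), the cytosolic branched-chain aminotransferase, and *LYS5* (1.15). Of 20 genes for purine and pyrimidine synthesis 16 fell, with *ADE17* at 11.16 and 11.65 in the control and 8.21 and 7.93 in L-UBB+1. In serine, glycine and one-carbon metabolism 10 of 13 fell. In sulfur metabolism 8 of 27 fell, namely those around methionine and its S-adenosyl form (*MET6*, *MET13*, *MET17*, *SAM1*, *SAM2*, *SAH1*, *CYS3* and the permease *MUP1*), and the sulfate permease *SUL1* (3.10) and *MET2* (1.60) rose. The count of falls was 5 without control D6 replicate 1, and *MET2* lost its call without control D6 replicate 2. In NAD and nicotinate synthesis 8 of 13 genes fell, led by *BNA3* (-3.17), and that count was 5 without either control D6 array.

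Nitrogen genes went both ways, with 8 of 29 higher (27.6%) and 6 lower (20.7%), not far from the 17.9% and 18.5% of all genes. The risers were led by the glutamate dehydrogenase *GDH3* (3.86), proline oxidase *PUT1* (3.08) and the permease *UGA4* for gamma-aminobutyrate (2.38), and the count of 8 was 5 without either control D6 array. All 6 genes that fell encode permeases, *BAP3*, *TAT1*, *HIP1*, *GNP1* and *TAT2* for amino acids and *MEP3* for ammonium, from -3.28 for *BAP3* to -1.30 for *TAT2*.

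Genes of the secretory pathway fell in each list. Of 20 genes for translocation into the endoplasmic reticulum (ER) 12 fell, with the channel gene *SEC61* at -1.81 and *SEC63* at -2.33. Of 15 genes for protein folding in the ER 9 fell, among them the Hsp70 *KAR2*, at 11.17 and 11.43 in the control and 9.93 and 9.92 in L-UBB+1, while the disulfide isomerase *PDI1* (-0.13) and the unfolded protein response genes *HAC1* (-0.11) and *IRE1* (-0.55) were not called. In N-glycosylation 21 of 27 genes fell, with the glucosidase *ROT2* at -2.33 and the oligosaccharyltransferase catalytic subunit *STT3* at -1.72. For vesicle transport to the Golgi 15 of 32 fell, and 0 genes of these 4 lists rose. In the cytosol, 4 of 20 genes for Hsp70, Hsp90 and their partners fell and 0 rose, against 18.5% and 17.9% of all genes. They were *SSA2* and *SSA1* and the ribosome-bound *SSZ1* and *ZUO1*, with *SSA1* losing its call in 7 alternatives, and *HSP82* was at 9.67 and 9.66 in the control and 10.68 and 9.51 in L-UBB+1, where the arrays overlapped.

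Autophagy genes rose in part. Of 20 core autophagosome genes 6 rose and 0 fell. *ATG8*, the ubiquitin-like protein that coats the autophagosome, was at 8.41 and 8.73 in the control and 11.72 and 11.18 in L-UBB+1, a log2(FC) of 2.88 ± 0.21. The initiating kinase *ATG1* rose by 2.5, the *ATG8*-conjugating enzyme *ATG3* by 2.28, its protease *ATG4* by 1.40, the ubiquitin-like *ATG12* by 1.57 and the membrane protein *ATG9* by 1.99. The lipid kinase genes *VPS34* (-0.14), *VPS15* (0.19) and *VPS30* (0.32) and the scaffold *ATG17* (0.61) were not called. Of 18 genes for selective autophagy and related steps 11 rose and 2 fell. Receptors were among the largest changes, with *ATG39* for the nucleus at 4.46, *ATG32* for mitochondria at 3.21, *ATG40* for the ER at 2.5 and *ATG36* for peroxisomes at 1.77. Of the receptors of the cytoplasm-to-vacuole route, *ATG34* rose by 2.98 and *ATG19* fell by 1.51, and its cargo aminopeptidase *APE1* fell by 2.22. In the vacuole the protease *PRB1* rose by 1.93 and *PEP4* was at -0.58, and 10 of 18 genes of the proton pump fell, with *VMA5* at -2.79, a count of 6 and 5 without control D6 replicate 1 and 2.

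The ubiquitin system was taken part by part. Of 34 ubiquitin ligase genes 15 rose and 0 fell, among them the mitochondrial F-box gene *MDM30* (2.69), *SLX5* and *SLX8* of the ligase for sumoylated proteins (1.90 and 2.56), the N-end rule ligase *UBR1* (1.79) and *SKP1* and *HRT1*, shared subunits of the SCF ligases (1.62 and 1.79). The essential ligase *RSP5* was at -0.23 and *CDC4* at 0.61. Polyubiquitin *UBI4* was at 10.48 and 10.16 in the control and 11.86 and 11.99 in L-UBB+1 and rose by 1.60. The conjugating enzyme *UBC8*, which acts in the removal of gluconeogenic enzymes, rose by 2.51, and the activating enzyme *UBA1* and the proteasomal deubiquitinase *UBP6* fell by 1.35 and 1.37. For the proteasome, 3 of 45 genes rose and 2 fell, a lower share than over all genes, with a median of 0.22. They were the transcription factor *RPN4*, at 9.33 and 8.94 in the control and 10.89 and 10.93 in L-UBB+1, the subunits *RPT6* (1.12) and *RPN8* (1.02), and, lower, *PRE6* (-1.10) and *ECM29* (-1.11), and these counts were 1 and 4 without L-UBB+1 D6 replicate 1. Of 14 genes for degradation from the ER *UFD1* (1.52) and *UBC7* (1.19) rose and *DFM1* (-1.24) fell.

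Many genes of cell separation and of the wall fell. For the separation of daughter cells 9 of 10 genes fell, with the lowest median of all lists, -3.01, and the exception was *DSE3* (-0.65). The chitinase *CTS1* was at 11.29 and 11.17 in the control and 7.76 and 7.63 in L-UBB+1, and *EGT2* and *SCW11* fell (-3.41 and -2.83). Among 33 wall genes 14 fell and 5 rose, with 3 rising without either control D6 array or without L-UBB+1 D6 replicate 1. The crosslinking enzyme *CRH1* (-3.01) and the glucan-remodelling *GAS1* (-2.49) fell, and of the glucan synthase subunits the vegetative *FKS1* was at -1.07 without a call and *GSC2* rose by 2.25, from 10.09 and 10.05 to 12.18 and 12.46. Of 21 cyclin and cell cycle genes 7 fell and 0 rose, namely the G1 cyclins *CLN1*, *CLN2* and *CLN3* (-2.51, -2.53 and -1.80), the cyclin *PCL1* (-2.50) and *CLB1*, *CLB2* and *CLB6* (-2.82, -2.42 and -1.30). All 7 lay among the dimmest genes and were left out where those were filtered. Meiosis genes rose in 11 of 33 cases and fell in 0, with the spore wall gene *SPS100* at 5.71 and 5.90 in the control and 10.59 and 9.71 in L-UBB+1 and the inducer *IME1* at 2.62, while the later regulator *NDT80* was at 0.16. That count was 7 without either control D6 array.

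Of 40 chromatin remodelling genes 13 rose and 0 fell, led by *ARP8* (1.92), of the INO80 complex, and *VPS72* (1.91), of the SWR1 complex, with a list median of 0.40. Of 10 genes of the SUMO system, which attaches a ubiquitin-like tag, 4 rose, including the ligases *SIZ1* (1.76) and *NFI1* (1.95). Among 23 iron genes 11 rose and 0 fell, with the wall mannoproteins *FIT2* and *FIT3* at 3.16 and 3.54 and the mRNA-degrading factor *TIS11* at 2.49. The high-affinity iron uptake pair *FET3* and *FTR1*, at -2.06 and -1.67, were not called (adjusted p = 0.00469 and 0.00162), and *FET3* was at 10.57 and 9.48 in the control, with replicates apart. The count of iron genes was 7 and 6 without control D6 replicate 1 and 2. Drug efflux genes rose in 8 of 18 cases and fell in 4, with *QDR1* at 2.21 and the polyamine exporter *TPO1* at -2.17, and 1 fell without control D6 replicate 2.

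Genes often used to scale transcript measurements were not constant between the strains. *ACT1*, the actin gene to which quantitative PCR values were scaled in this work, was at 11.91 and 12 in the control and 9.89 and 9.66 in L-UBB+1 and fell by 2.18 ± 0.12. *IPP1* (-1.97), *TUB1* (-1.47) and *ALG9* (-1.39) fell, *TAF10* rose by 1.20, and *TFC1* (0.29), *PDA1* (-0.50) and *UBC6* (0.65) were not called.

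The strain difference at D6 was set against that at EX, which shares no array with it. Both used the same estimate of the spread of each gene, so their calls were not fully independent. Each L-UBB+1 D6 array also lay within an SD of 0.086 or 0.143 of an L-UBB+1 EX array, closer than its own replicate. The L-UBB+1 values were thus nearly the same in both comparisons, so shared calls and signs are not separate support. The difference of effects rested mainly on the change between the control arrays. Of the genes called at D6, 819 risen and 812 fallen genes were called the same way at EX. Another 155 risen and 193 fallen genes were called only at D6, of which 315 differed by over 0.5 the same way at EX and 0 had the opposite sign. When the difference of the effects was itself tested, 0 of 5444 genes passed an adjusted p of 0.05 (limma, smallest adjusted p 0.275), and 868 genes, or 15.9%, had an unadjusted p under 0.05. Ribosome biogenesis held 118 of its 141 genes in this set, with a median log2(FC) of -0.80 at D6 and 0.02 at EX. The median of these genes was 9.09 and 8.91 on the control D6 arrays, 7.95 and 8.38 on the control EX arrays and between 8.16 and 8.48 on the 4 L-UBB+1 arrays, so that the control D6 arrays stood apart from the other 6. Mitochondrial ribosomal proteins held 24 of 73. The genes with the smallest p for less at D6 were *AAH1*, for adenine deaminase (-0.45 at EX and -1.91 at D6), the helicase *HAS1*, *INA1*, the ribosome biogenesis factor *SDA1* and the rRNA methyltransferase *BMT5*. Those for more at D6 were *PGM2*, for phosphoglucomutase (-1.08 at EX and 0.78 at D6), the wall gene *CWP1*, *QCR8* of the respiratory chain, *UBC8* and *ATG19*.

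**Figure D5:**
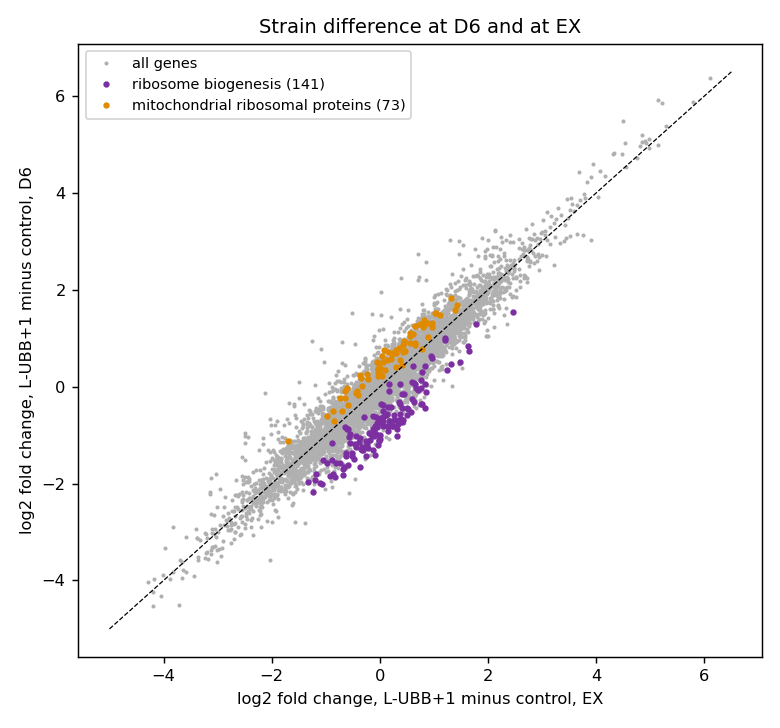
Log2 fold change of L-UBB+1 over control at D6 (vertical axis) against that at EX (horizontal axis) for 5444 genes, with ribosome biogenesis genes in purple, mitochondrial ribosomal protein genes in orange and a dashed line where both are equal. Genes of ribosome biogenesis lie mostly below the line (median -0.80 at D6 and 0.02 at EX) and those of the mitochondrial ribosome mostly above it (0.64 and 0.23).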

How the data were processed

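Total RNA from biological duplicate cultures of both strains at EX and D6 was hybridized to 1-colour Affymetrix Yeast Genome 2.0 arrays. The authors deposited log2 expression values per probe set, made in R with the PIANO package and already on a common scale between arrays. The submitters' processing notes name R 3.2.3. For the summarization of probes and normalization of arrays the method was not given in the sources used here. No further normalization was applied to these values, and 0 columns were left out. The number of arrays limits the precision. An array has no read depth.

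Of 5705 probe sets, 5489 had 1 gene in the platform annotation and 216 had none named and were left out. For 43 genes with several probe sets the one with the highest mean was taken, which left 5444 genes. Of these, 115 were read by probe sets that may hybridize to related transcripts. Probe sets differ in brightness, so changes were read between arrays. Levels of different genes were set side by side for the mating type markers and in leaving out dim genes, where brightness may mislead.

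Genes were fitted to 4 group means with limma 3.58.1 in R 4.3.3 (4 residual and 3.26 prior degrees of freedom). P-values were adjusted over all genes by the Benjamini-Hochberg method. A call needed an adjusted p under 0.001 and a log2(FC) of at least 1 in size, and the difference of effects an adjusted p under 0.05. The fit was tested on simulated data, where 65 of 100 changes of 1.5 log2 and 95 of 100 changes of 3 were called. Of 5244 unchanged genes 1 was called. A gene that was not called may thus still differ. The members and gene lists were chosen with earlier results of these data known, and list counts are descriptions. Named genes were the 15 largest rises and falls, list members named for their role, the 5 genes each way with the smallest p for the difference of effects, and marker genes. Alternatives covered the arrays in the fit, normalization, dim genes, probe set choice, the prior, a replicate block, thresholds, the methods' t-test and each array left out.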

Additional observations from a re-analysis of the deposited data

Results flagged for a closer look

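Probe sets outside the comparison of genes also carried signal that differed. Of the 216 probe sets for which no gene is named here, 42 were higher and 40 lower in L-UBB+1 at D6 on the terms used for genes (limma, Benjamini-Hochberg), with log2(FC) from -2.84 to 3.96. These shares lie near the 17.9% and 18.5% of all genes.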

How the results depend on the processing

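The counts of 974 risen and 1005 fallen genes at D6 stayed within 1.5 times under all alternatives but 1. The exception was the methods' t-test on the 4 D6 arrays at its unadjusted p, which gave 1621 and 1672 genes. After adjustment the t-test gave 1222 and 1242, and it had no limit on the fold in either case. Leaving out single arrays gave 800 to 968 risen and 805 to 991 fallen genes, lowest without control D6 replicate 1. In the fit without the 1361 dimmest genes, 848 and 812 were called, and with no limit on the fold 1329 and 1321. No gene called in the main comparison changed sign in the 17 refits in which the genes were compared. With the replicate number as a block the counts were 914 and 925. The numbers did not pair the samples, since the deviations of same-numbered D6 arrays correlated at -0.214 and those of the L-UBB+1 EX and D6 arrays at -0.855. A block with the numbers of the L-UBB+1 EX and control D6 arrays exchanged, chosen after seeing the data, gave 1026 and 1057 genes and 393 genes for the difference of effects between D6 and EX, which was 0 in all other alternatives run for it, among them all single arrays left out (0 to 0). The cause was not tested. Over 1591 genes and all alternatives, 26814 values were set against the main ones. Of these, 25896 kept their call, 692 lost and 225 gained a call, and 309 genes were affected. Direction was compared only where a gene was called in the main or the alternative fit. The histone gene *HTA2* turned from 0.18 to -1.26 where all its probe sets were averaged. Signal near background is compressed on arrays, so folds of genes dim in 1 strain may be understated.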

Other observations

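Many enzymes of yeast are encoded by paralogs of which different members serve growth on glucose and growth on other carbon sources or under stress. For 35 pairs of related genes, chosen after their values were seen, both members were set side by side at D6. The pairs also include regulators, such as *MSN2* and *MSN4*, and pairs without this split of roles. In 8 pairs the members were called in opposite directions, in 3 the same way, in 22 only 1 member was called and in 2 none. Acetyl-CoA synthetase *ACS2* was at 10.84 and 10.61 in the control and 7.44 and 7.72 in L-UBB+1, while *ACS1*, the form used without glucose, was at 7.63 and 7.49 against 11.55 and 11.32. In the cytosolic Hsp70 family *SSA2* fell by 4.04 and *SSA3* rose by 3.16, from 8.10 and 7.81 to 11.56 and 10.67, with the call of *SSA3* lost without control D6 replicate 2. The other 6 opposite pairs were the transketolases *TKL1* (-3.0) and *TKL2* (2.19), the transaldolases *TAL1* (-1.51) and *NQM1* (3.03), the thioredoxins *TRX1* (-2.48) and *TRX2* (1.35), the ribonucleotide reductase subunits *RNR1* (-1.81) and *RNR3* (2.75), the branched-chain aminotransferases *BAT1* (-2.75) and *BAT2* (1.51) and the alanine transaminases *ALT1* (-1.51) and *ALT2* (2.69). *MPC3*, a subunit of the mitochondrial pyruvate carrier used in respiration, rose by 4.32 and its fermentative counterpart *MPC2* was at -1.08 without a call. Similar sequences can share probes, which was not tested.

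Smaller lists not described above gave these counts. Of 28 antioxidant genes 4 rose and 7 fell, with the glutathione peroxidase *GPX1* at 2.73 and the peroxiredoxin *TSA1* at -2.22, and 1 rose without control D6 replicate 1. Of 12 O-mannosylation genes 5 fell. The 21 phosphate genes gave 4 rises and 1 fall, *PHO91* (-2.22), and 2, 1 and 2 rose without control D6 replicate 1, control D6 replicate 2 and L-UBB+1 D6 replicate 1. Of 9 zinc genes 1 rose, the regulator *ZAP1* (2.14), and 4 fell, with the secreted protein gene *ZPS1* at -2.24, and 1 fell without either control D6 array or without L-UBB+1 D6 replicate 2, and 2 without L-UBB+1 D6 replicate 1. In DNA replication 2 of 37 genes rose and 4 fell.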
